A study of Homo sapiens with 60 samples.

Results

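The comparison described here is topotecan against its vehicle DMSO within clone G6, a clone of HEK293A cells whose TDP1 gene was targeted for knockout with CRISPR/Cas9. It was chosen by the sample labels and takes in 8 of the 60 libraries of the study, 4 given DMSO and 4 given topotecan. HEK293A is a human embryonic kidney line that carries adenoviral E1 genes, and the E1B product binds p53. The DMSO group received 0.1% DMSO and the topotecan group 100 nM topotecan in 0.1% DMSO, each for 5 to 5.5 hours, in DMEM/F12 medium with serum. All groups carry the targeted TDP1 gene, and the parental line was not analysed here, so no difference can be tied to the knockout. The other groups of clone G6 used below had 4 libraries each. They were left without treatment, given the compound OL9-119 at 5 µM in 0.1% DMSO, or given 100 nM topotecan and 5 µM OL9-119 together. No DMSO share is recorded for the combination. Clones C6 and F7, which are separate knockout clones of the same line, serve for 1 comparison. Clone G6 is a single clone, so that its 4 biological replicates per group do not sample variation between clones. The labels do not say whether replicates were separate cultures, and the p-values measure the spread between these libraries.

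Topoisomerase 1, the product of TOP1, relaxes supercoiled DNA ahead of RNA and DNA polymerases by cutting a single strand and closing it again. Topotecan, a camptothecin derivative, traps the enzyme on the cut DNA, and TDP1 removes the remains of such trapped protein from the DNA end. A polymerase that has to cross a wide gene meets more trapped enzyme than a polymerase on a short gene. NF-kB is a family of transcription factors held in the cytoplasm by inhibitors such as the NFKBIA product. It can be switched on by DNA breaks as well as by cytokines, and it drives genes for chemokines and for its own inhibitors.

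Chemokine and NF-kB inhibitor genes led the increases and genes of mitosis were prominent among the decreases outside wide genes, so the DNA just upstream of 6 of them is shown. The sequences are the 250 bases before the RefSeq transcript start on the GRCh38.p14 build, written 5′ to 3′ on the strand of the gene: CXCL8 at chr4:73740319-73740568 (plus strand), CXCL1 at chr4:73869143-73869392 (plus strand), TNFAIP3 at chr6:137867009-137867258 (plus strand), NFKBIA at chr14:35404750-35404999 (minus strand), PLK1 at chr16:23678639-23678888 (plus strand) and CDC20 at chr1:43358731-43358980 (plus strand). Capitals mark matches, on either strand, to the NF-kB consensus, to the related form GGANTTTCC, to the AP-1 element TGANTCA, to the CHR element TTTGAA of cell cycle genes, or to the CCAAT box.
CXCL8: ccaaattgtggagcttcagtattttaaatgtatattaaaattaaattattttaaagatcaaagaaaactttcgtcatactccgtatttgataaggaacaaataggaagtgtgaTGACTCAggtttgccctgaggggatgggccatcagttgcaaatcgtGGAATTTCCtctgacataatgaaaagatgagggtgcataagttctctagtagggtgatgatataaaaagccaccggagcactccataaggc
CXCL1: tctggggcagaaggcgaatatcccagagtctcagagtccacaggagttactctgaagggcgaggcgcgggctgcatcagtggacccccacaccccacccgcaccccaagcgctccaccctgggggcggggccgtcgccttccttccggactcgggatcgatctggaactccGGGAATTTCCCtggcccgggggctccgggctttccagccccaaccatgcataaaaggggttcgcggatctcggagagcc
TNFAIP3: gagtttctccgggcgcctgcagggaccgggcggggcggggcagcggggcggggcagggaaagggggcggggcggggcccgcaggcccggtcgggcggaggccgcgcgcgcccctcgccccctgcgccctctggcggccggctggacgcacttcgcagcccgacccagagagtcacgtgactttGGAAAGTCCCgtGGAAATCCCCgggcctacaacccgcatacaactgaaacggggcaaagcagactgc
NFKBIA: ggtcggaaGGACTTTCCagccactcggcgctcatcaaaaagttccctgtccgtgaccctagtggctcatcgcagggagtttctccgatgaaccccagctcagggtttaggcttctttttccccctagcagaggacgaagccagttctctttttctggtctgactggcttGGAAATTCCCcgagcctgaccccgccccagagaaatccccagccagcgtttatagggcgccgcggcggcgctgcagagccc
PLK1: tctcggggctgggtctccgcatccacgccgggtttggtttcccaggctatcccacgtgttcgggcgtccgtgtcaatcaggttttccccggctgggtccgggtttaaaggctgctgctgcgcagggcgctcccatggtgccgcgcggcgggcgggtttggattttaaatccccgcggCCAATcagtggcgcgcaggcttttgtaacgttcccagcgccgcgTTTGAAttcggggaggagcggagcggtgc
CDC20: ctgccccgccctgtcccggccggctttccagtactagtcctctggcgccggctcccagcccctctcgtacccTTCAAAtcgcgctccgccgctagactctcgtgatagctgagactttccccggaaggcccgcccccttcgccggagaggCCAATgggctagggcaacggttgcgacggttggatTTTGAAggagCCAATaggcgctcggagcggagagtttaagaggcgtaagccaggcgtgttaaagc
CXCL8 holds TGACTCA at 137 to 131 bases before the start and GGAATTTCC at 91 to 83 bases before it. CXCL1 holds GGGAATTTCC at 79 to 70 bases before the start. TNFAIP3 holds a pair of NF-kB matches on the minus strand, and PLK1 holds CCAAT at 73 to 69 and TTTGAA at 29 to 24 bases before the start. The promoters of CCL20 and CCNB1 were searched as well and are not printed. CCL20 holds an NF-kB consensus match on the minus strand at 79 to 70 bases before the start. CCNB1 holds CCAAT at 87 to 83 and at 55 to 51 bases before the start and has no TTTGAA match. Promoters were matched for 11595 of the 15774 genes tested. The NF-kB consensus was found in 8 of the 13 chemokine and cytokine genes with a promoter (61.5%), against 11.9% of the matched genes and 9.57% of all 27303 promoters of this length. The list was drawn up from known NF-kB targets, and 7 of its 17 tested genes were under the filter on low counts in some DMSO library, so a raised share is partly built into the choice and supports nothing. GGANTTTCC, whose matches partly overlap those of the consensus, was found in 6 of these 13, against 1.43% of the matched genes and 1.47% of all promoters. In the other NF-kB lists the consensus was found in 6 of 19 subunit, inhibitor and kinase genes (31.6%). Among receptor, survival and signalling targets it was found in 6 of 18 (33.3%). It was found in 9 of 21 interferon-stimulated and antigen presentation genes (42.9%) and in 0 of 26 immediate early genes. CCAAT was found in 21 of 25 mitotic kinase and regulator genes (84%), against 35% and 33%. The box was as frequent in other lists, at 20 of 23 unfolded protein response genes (87%) and 10 of 11 histone genes (90.9%). Past the threshold, the unfolded protein response list had 1 member lower and the histone list none. Without DMSO replicate 4 the former counted 5 higher and 9 lower. TTTGAA was found in 14 of those 25 (56%), against 8.23% and 13.6%. TGANTCA stood in 5 of the 13 chemokine and cytokine genes, against 4.07% of the matched genes. A match describes the letters in this window and is not a measured binding site.

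Totals ran from 6.86 to 20.9 M counts in the 8 libraries (median 11 M), and the mitochondrial share from 3.70 to 4.85%. DMSO replicate 1 stood apart. At a common depth of 4.5 M counts it held 18383 detected genes, against 20782 to 22499 in the other 7 libraries, and its mean correlation with the libraries of its group was 0.953, against 0.967 to 0.989. Of the 60 libraries, 14 fell under 20000 genes in this way. DMSO replicate 4 stood apart in another way, lying toward the topotecan libraries for genes of wide and of short span, with values given beside those results. Replicates 1 and 2, 3 and 4 carry the library name prefixes L01, L02 and L03, the same in both groups. The 9 markers of the HEK293 line summed to 1648 to 2020 CPM, counts corrected for library size, in DMSO and 1769 to 2086 CPM in topotecan libraries, and all 9 had a mean over 1 CPM. The markers of blood, fibroblast, hepatocyte and endothelial cells summed in the 8 libraries to 0.572 to 6.31, 16.7 to 40.9, 0.0817 to 1.88 and 3.84 to 13 CPM.

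TDP1 (chromosome 14, 89954939 to 90044768, hg38) was counted at 32.6, 38.9, 31.3 and 25.9 CPM in DMSO replicates 1 to 4 and at 24.9, 22, 23 and 23.8 CPM in topotecan replicates 1 to 4. The groups did not overlap, yet the log2 change of -0.45 ± 0.14 (SE) did not pass the threshold (adjusted p = 0.0584, edgeR quasi-likelihood test with Benjamini-Hochberg adjustment). It passed without DMSO replicate 4. An edited exon can leave the count of the whole gene in place, so these levels do not test the knockout. TOP1 (chromosome 20, 41028818 to 41124487) stood at 548, 510, 527 and 374 CPM in DMSO and at 408, 374, 373 and 347 CPM with topotecan. DMSO replicate 4 lay within the topotecan range. The log2 change of TOP1 was -0.38 ± 0.11 (adjusted p = 0.0491, edgeR), at the threshold, and the call was lost without any 1 of 7 libraries, with adjusted p up to 0.169.

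Topotecan moved 1224 of 15774 genes past the threshold of an adjusted p of 0.05 (7.76%), 282 higher (1.79%) and 942 lower (5.97%). In 1096 of the 1224 the 2 groups of libraries did not overlap. Over all genes tested, 5.60% lay higher without overlap and 8.42% lower. There were 36 genes that rose at least 2-fold and 106 that fell at least 2-fold, and the 3 largest increases among genes at a mean log2 CPM of at least 2 were 7.42-fold or more (CXCL1, CXCL8 and CCL20). Of the 36, 18 belonged to the 3 NF-kB lists and 16 to no list used here. Of the 106, 94 were protein-coding genes spanning over 200 kb. Leaving out DMSO replicate 1 gave 1238 genes (7.85%), 325 higher (2.06%) and 913 lower (5.79%), 1042 of them shared with the full set. The counts moved by more than 1.5 times without any 1 of the other 7 libraries, to 4308 without DMSO replicate 4 (27.3%, with 11.9% higher and 15.5% lower), 612 and 631 without DMSO replicates 2 and 3, and 808, 699, 587 and 538 without topotecan replicates 1 to 4. The counts that the gene lists below give without DMSO replicate 4 stand against these larger shares. Their counts from the full fit stand against 1.79% higher and 5.97% lower. With total counts and no scaling factors, 435 were higher and 703 lower, so that the higher share of the calls was 38.2% against 23%.

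Genes for NF-kB subunits, inhibitors and their kinases were the regulators of the pathway. All 22 members were tested; 8 rose and 14 did not pass, with no member lower and a median log2 change of 0.32 against 0.02 over all genes tested. The 4 that rose with the smallest p were inhibitors or members of the non-canonical arm. TNFAIP3 (chromosome 6, 137867188 to 137883312), whose product removes ubiquitin from upstream signalling proteins, had the smallest p of all genes. Its level was 25.2, 29.7, 25.5 and 31.1 CPM in the DMSO libraries and 153, 130, 151 and 136 CPM in the topotecan libraries. Every topotecan library lay above every DMSO library, a 5.09-fold rise (log2 2.35 ± 0.11, adjusted p = 7.45e-08, edgeR). NFKBIA (chromosome 14, 35401511 to 35404749), the inhibitor that retains NF-kB in the cytoplasm, went from 69.1, 44, 40.7 and 51.4 CPM to 139, 126.99, 146 and 149 CPM. The highest DMSO value was that of replicate 1, and the groups did not overlap (log2 1.44 ± 0.15, adjusted p = 5.53e-05, edgeR). RELB, a subunit of the non-canonical pathway, stood at 7.52, 9.41, 11.9 and 16.6 CPM in DMSO and at 32.9 to 36.5 CPM with topotecan (log2 1.62 ± 0.20, adjusted p = 0.00022, edgeR). NFKB2, which encodes its partner p100, rose from 61.7 to 80.9 CPM up to 135 to 157 CPM (log2 1.10 ± 0.11). The canonical subunits moved less: RELA changed by 0.38 ± 0.12 (adjusted p = 0.0684, edgeR) and NFKB1 by 0.26 ± 0.11 (adjusted p = 0.166, edgeR), neither past the threshold although their groups did not overlap. RELA passed without DMSO replicate 4. The list members NFKBIE (0.70), NFKBIZ (0.63), BCL3 (0.88, with overlapping groups) and TNIP2 (0.46) also rose, but each lost its call without 3 or more of the 8 libraries, topotecan replicate 4 among them, with adjusted p up to 0.164. Without DMSO replicate 1, 7 members rose and none fell, and without DMSO replicate 4, 11 rose and 2 fell.

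The chemokines and cytokines that NF-kB drives showed the largest increases. Of 24 genes, 17 passed the filter on low counts, and of these 9 rose, none fell and 8 did not pass (median log2 0.71). The filter asked for about 0.908 CPM in 4 libraries, which only 10 of the 17 reached in all 4 DMSO libraries. The other 7 could pass through the group where they were high, so the share that rose does not describe the 24. CXCL8 (chromosome 4, 73740506 to 73743716), the neutrophil attractant interleukin-8, stood at 27, 20.6, 14.9 and 14.1 CPM in DMSO and at 241, 161, 197 and 174 CPM with topotecan. Every topotecan library lay above the highest DMSO library, and the mean went from 19.1 ± 6.01 to 193 ± 35.3 CPM (SD, n = 4), a 10.1-fold rise (log2 3.33 ± 0.20, adjusted p = 7.49e-07, edgeR). CXCL1 (chromosome 4, 73869393 to 73871242), a chemokine of the same receptor, was near the floor in DMSO with 7, 12, 8 and 13 counts and reached 94 to 228 counts with topotecan. Its CPM values were 0.599, 1.55, 1.22 and 0.697 against 13.4, 8.57, 12.5 and 12.3, and its log2 change was 3.62 ± 0.30 (adjusted p = 1.11e-05, edgeR). CCL20, which attracts lymphocytes and dendritic cells, went from 1.03 to 1.98 CPM up to 7.59 to 13.4 CPM (log2 2.89 ± 0.27). CXCL3 (3.43 ± 0.43) and TNF (2.21 ± 0.29), both under 2 CPM in every DMSO library, rose as well. CXCL2 stood at 5.81, 1.93, 1.22 and 1.23 CPM in DMSO and at 8.69, 7.22, 8.98 and 8.98 CPM with topotecan. Only DMSO replicate 1 came near the topotecan values of CXCL2, whose log2 change of 1.70 ± 0.40 (adjusted p = 0.0179, edgeR) became 2.56 without that library and lost its call without DMSO replicate 2 or 3 or topotecan replicate 3 or 4 (adjusted p up to 0.0769). CXCL1, CXCL2 and CXCL3 are close copies of each other, and reads shared between them could be split by the counting. PTX3, a pattern recognition protein, rose from 9.42 to 15.4 CPM up to 34.5 to 35.7 CPM (log2 1.54 ± 0.15). The cytokine genes LIF (0.69) and IL32 (0.71) rose too, the latter with overlapping groups and a call lost without 4 of the 8 libraries (adjusted p up to 0.0855). IL6 was not tested, with 0, 0, 2 and 3 counts in DMSO and 0, 2, 1 and 10 counts in topotecan libraries. The rises were 11 of 17 without DMSO replicate 1 and 10 of 17 without DMSO replicate 4.

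Receptor, survival and signalling targets of NF-kB formed the third list. Of 24 genes, 21 were tested, and 14 rose, 7 did not pass and none fell (median log2 0.77). IER3 (chromosome 6, 30743199 to 30744554), an early gene that modulates cell survival, stood at 75.3, 56.9, 72.5 and 94.3 CPM in DMSO and at 223, 236, 257 and 283 CPM with topotecan. The groups lay far apart, with a log2 change of 1.73 ± 0.14 (adjusted p = 1.04e-05, edgeR). TNFRSF9, a co-stimulatory receptor of the TNF family, rose from 10.2 to 16.1 CPM up to 28.9 to 41 CPM (1.51 ± 0.17). CD83, a surface protein of mature dendritic cells, went from 21.1 to 26.2 CPM up to 48.3 to 66.4 CPM (1.23 ± 0.13). The transcription factor gene IRF1 (1.20 ± 0.14), the protease gene PLAU (1.21 ± 0.14), the proteoglycan gene SDC4 (0.77 ± 0.09) and BIRC3, which encodes a ubiquitin ligase that protects from cell death (1.07 ± 0.15), also rose. The remaining rises were those of JUNB, EFNA1 (0.85), RND1 (0.80), KLF6 (0.46), GADD45B (0.47), the adhesion receptor gene ICAM1 (0.83) and TNFAIP2 (0.54). The calls of the last 4 were lost without topotecan replicate 3, and those of GADD45B, ICAM1 and TNFAIP2 also without at least 3 further libraries (adjusted p up to 0.160). SOD2, the mitochondrial superoxide dismutase, changed by 0.25 ± 0.10 (adjusted p = 0.18, edgeR) and did not pass. Several of these genes are best known from immune cells. Blood cell markers summed to 0.572 to 5.85 CPM in DMSO and to 2.97 to 6.31 CPM in topotecan libraries, and 2 of the 8 had a mean over 1 CPM across the libraries. Their part in the result was not tested. PTPRC, CD3E and HBB had means of at most 0.132 CPM in both groups. Without DMSO replicate 1 the list counted 13 rises.

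**Figure D1:**
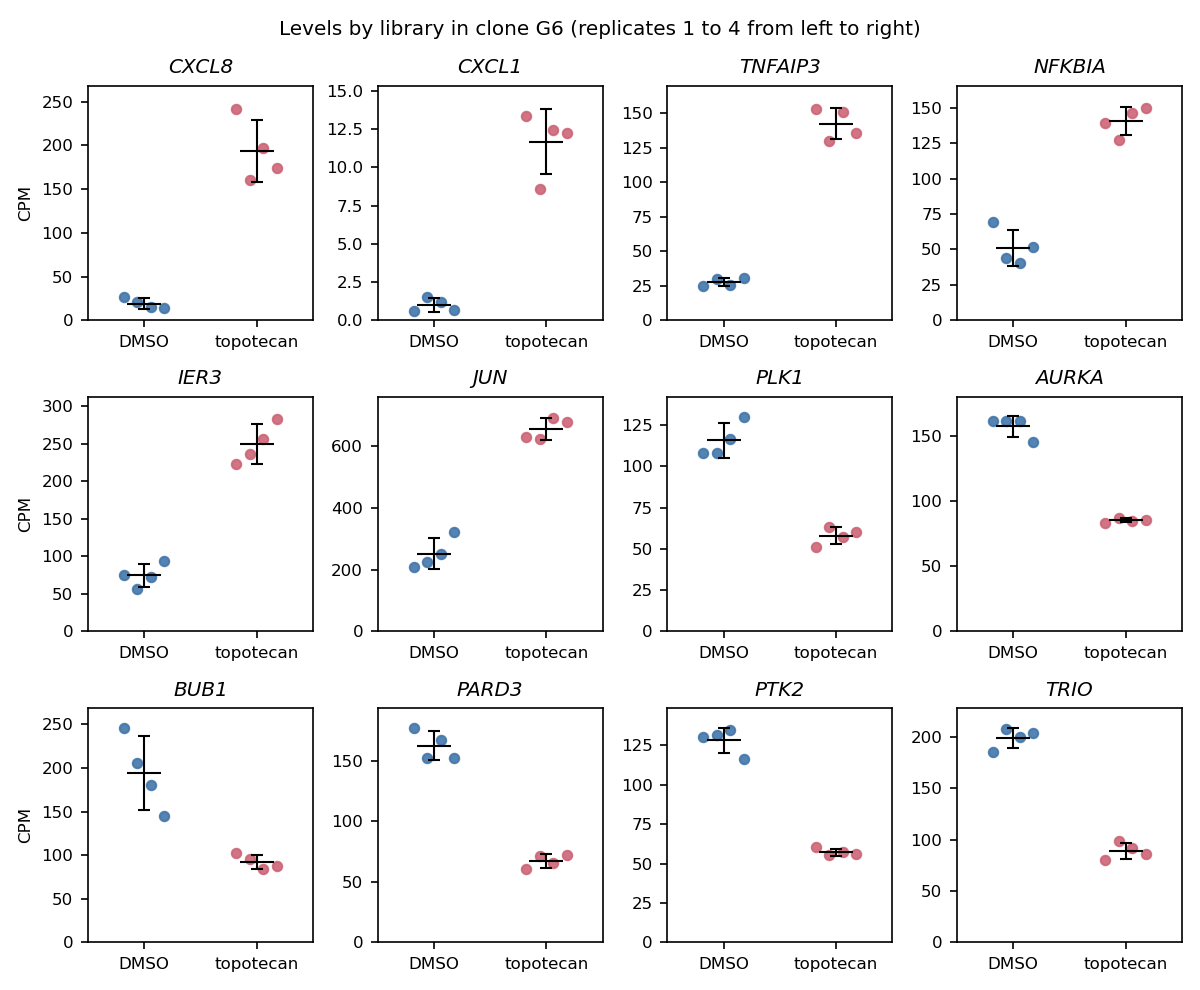
Levels of 12 genes in CPM (vertical axis, starting at 0) in the 4 DMSO and 4 topotecan libraries of clone G6; points are libraries, the horizontal mark is the mean and the whiskers the SD (n = 4). CXCL8 sits at 14.1 to 27 CPM in DMSO and at 161 to 241 CPM with topotecan, and in each of the 12 genes the groups do not overlap.

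Outside these lists, TCIM rose from 10.6 to 18.7 CPM up to 36.3 to 52.8 CPM (log2 1.73 ± 0.18), IRAK2, a kinase of the interleukin-1 and Toll-like receptor pathway, from 2.57 to 3.97 CPM up to 8.10 to 11.4 CPM (1.57 ± 0.22), and N4BP3 from 4.79 to 13.8 CPM up to 17.9 to 28.1 CPM (1.34 ± 0.25). CD69, a surface marker of activated lymphocytes, and the kinase gene NUAK2 were picked out after their values were seen. CD69 was barely counted in DMSO (0.152 to 1.20 CPM) and stood at 3.82 to 6.12 CPM with topotecan (log2 3.01 ± 0.46, adjusted p = 0.00114, edgeR). NUAK2 rose by 1.31 ± 0.21.

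Immediate early genes, which respond within minutes to hours to growth factors and stress, moved upward as a list. Of 36 genes 35 were tested, and 16 rose, none fell and 19 did not pass (median log2 0.46). JUN (chromosome 1, 58780788 to 58784327), the core subunit of the AP-1 transcription factor, stood at 208, 224, 252 and 321 CPM in DMSO and at 630, 624, 693 and 679 CPM with topotecan. The rise was 2.61-fold with no overlap (log2 1.38 ± 0.12, adjusted p = 1.41e-05, edgeR). ATF3, a stress-induced transcription factor, varied little between replicates, with 133, 135, 134 and 133 CPM in DMSO and 298, 270, 322 and 289 CPM with topotecan. Its log2 change was 1.14 ± 0.09 (adjusted p = 1.04e-05, edgeR). JUNB stood at 41, 41.6, 38 and 69.7 CPM in DMSO, where replicate 4 was the highest, and at 108 to 144 CPM with topotecan (1.39 ± 0.17). PPP1R15A, whose product brings a phosphatase to the translation factor eIF2, rose by 0.83 ± 0.08, the zinc finger gene EGR1 by 0.83 ± 0.16 and the MAP kinase phosphatase gene DUSP1 by 0.70 ± 0.11. IER2 (0.84) and MYC (0.58), picked out after their values were seen, rose as well, and the call of MYC was lost without DMSO replicate 2 or topotecan replicate 2, 3 or 4 (adjusted p up to 0.0601). FOS, the usual partner of JUN, changed by 0.35 ± 0.15 (adjusted p = 0.195, edgeR) and did not pass, with overlapping groups. It passed without DMSO replicate 4. Without DMSO replicate 4 the list counted 26 rises and no fall, and without DMSO replicate 1 it counted 17.

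Targets of p53, which DNA damage usually activates in cells with a working p53, moved little. Of 32 genes, all tested, 2 rose, 1 fell and 29 did not pass (median log2 0.10). CDKN1A, the p53-driven inhibitor of cyclin-dependent kinases, stood at 222, 211, 194 and 247 CPM in DMSO and at 246, 227, 256 and 272 CPM with topotecan. These ranges overlapped (log2 0.19 ± 0.10, adjusted p = 0.262, edgeR), although the gene passed without DMSO replicate 4. MDM2, the ubiquitin ligase of p53 and itself a p53 target, fell by 0.48 ± 0.12 (adjusted p = 0.0203, edgeR), a call that was lost without DMSO replicate 2 or 3 or topotecan replicate 3 or 4 (adjusted p up to 0.0914). GADD45A, which also answers to other stress pathways, rose from 76.4 to 97.1 CPM up to 141 to 168 CPM (0.77 ± 0.10), and BTG2 rose by 0.45 ± 0.10 with a call lost without DMSO replicate 3 or topotecan replicate 3 or 4 (adjusted p up to 0.0656). Without DMSO replicate 4 the list counted 10 rises and 4 falls. With the replicate numbers as a block in the fit it counted 8 rises and 1 fall. In that fit 1171 of all 15774 genes rose and 1819 fell.

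Genes of mitotic entry and exit fell. Of the 32 mitotic kinases, cyclins and regulators, all tested, 19 fell, none rose and 13 did not pass, with a median log2 change of -0.52. PLK1 (chromosome 16, 23677656 to 23690367), a kinase that drives entry into mitosis, stood at 108, 108, 117 and 130 CPM in DMSO and at 51.0, 63.2, 57.2 and 60.4 CPM with topotecan. All topotecan libraries lay below all DMSO libraries (log2 -0.99 ± 0.11, adjusted p = 8.22e-05, edgeR). AURKA (chromosome 20, 56369389 to 56392337), the spindle pole kinase, was at 162, 162, 162 and 145 CPM in DMSO and at 83.4, 87.0, 84.9 and 85.8 CPM with topotecan. All 4 topotecan libraries lay within 4 CPM of each other (-0.88 ± 0.09, adjusted p = 4.89e-05, edgeR). CCNB1, the cyclin partner of CDK1, went from 256 to 278 CPM down to 159 to 181 CPM (-0.66 ± 0.08), and TPX2, a spindle assembly factor, from 479 to 651 CPM down to 338 to 362 CPM (-0.73 ± 0.09). The checkpoint kinase gene BUB1 was at 246, 205, 181 and 145 CPM in DMSO and at 84.4 to 102.5 CPM with topotecan (-1.07 ± 0.14). CDC20, the activator of the anaphase-promoting complex (-0.68 ± 0.11), and PSRC1 (-0.92 ± 0.13) fell too. In bulk RNA, fewer cells in a phase of the cycle and less RNA of these genes per cell cannot be told apart. The median span of the list was 18.3 kb. Without DMSO replicate 1, 22 of the 32 fell, and without DMSO replicate 4, 26 fell.

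Kinesins, centromere and kinetochore genes followed the same direction, with 18 of 34 lower, 1 higher and 15 not past the threshold (median log2 -0.42). CENPA, the histone variant of centromeres, fell from 30.9 to 36.4 CPM down to 17 to 21.3 CPM (-0.85 ± 0.12), and CENPF, a kinetochore protein, from 442 to 683 CPM down to 261 to 325 CPM (-0.93 ± 0.12). The kinesin motor genes CENPE (-1.16 ± 0.18) and KIF14 (-1.05 ± 0.13) fell more than 2-fold, and KIF20A fell by 0.67 ± 0.10. For CENPE the DMSO libraries themselves ranged from 138 CPM in replicate 4 to 288 CPM in replicate 1. KIF11 fell by 0.49 ± 0.13, with overlapping groups and a call lost without any 1 of 6 libraries (adjusted p up to 0.125). CDCA5, a cohesin protector, was the member that rose, by 0.36 ± 0.11 (adjusted p = 0.0495, edgeR), and its call was lost without any 1 of 7 libraries (adjusted p up to 0.173). Without DMSO replicate 1, 16 members fell and none rose.

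Genes of the G1/S transition and of replication licensing leaned upward in small steps. Of 34 genes, all tested, 6 rose, 1 fell and 27 did not pass (median log2 0.18), and without DMSO replicate 4 the counts were 13 and 3. ORC1, of the origin recognition complex, rose from 33.9 to 45.3 CPM up to 56.7 to 65.4 CPM (0.64 ± 0.11), and the licensing factor gene CDC6 from 136 to 167 CPM up to 192 to 220 CPM (0.48 ± 0.09). E2F1 (0.57 ± 0.14, with overlapping groups), E2F2 (0.53 ± 0.11), MCM4 (0.30 ± 0.08) and MCM3 (0.27 ± 0.07) also rose, each with a call lost without topotecan replicate 3 (adjusted p up to 0.130 over the 8 libraries left out in turn). RB1, the inhibitor of E2F factors, which spans 296 kb, fell by 0.69 ± 0.18 with overlapping groups, and lost its call without any 1 of 6 libraries (adjusted p up to 0.113). CCNE1 changed by 0.07 ± 0.15 (adjusted p = 0.822, edgeR). Of 29 genes for DNA polymerases, clamp and fork proteins, none rose, 27 did not pass and 2 fell, the polymerase alpha subunit gene POLA1 (-0.52 ± 0.09, 303 kb) and the primase gene PRIM2 (-0.68 ± 0.12, 332 kb). The lower share of 6.90% lay near the 5.97% over all genes tested. PCNA, the sliding clamp, changed by 0.20 ± 0.10 (adjusted p = 0.241, edgeR). Without DMSO replicate 4, 8 of the 29 rose and 4 fell. None of the 13 replication-dependent histone genes that passed the filter, of 35, passed the threshold in edgeR. The RNA was poly(A)-selected and most of the 35 were not tested, so this does not describe histone RNA as a whole.

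Of 28 topoisomerase, TOP1 lesion and single-strand break repair genes, 4 fell, none rose and 24 did not pass. The lower share was 14.3%, against 5.97% of all genes tested. Among protein-coding genes 2.96% were lower at 30 to 100 kb and 16.7% at 100 to 200 kb. TOP2A, the topoisomerase of dividing cells, went from 1056 to 1584 CPM down to 747 to 878 CPM (-0.77 ± 0.11, adjusted p = 0.000781, edgeR). The helicase gene WRN fell by 0.69 ± 0.15 (140 kb) with a call lost without topotecan replicate 4 (adjusted p = 0.0569, edgeR), and PARG, which removes poly(ADP-ribose), by 0.39 ± 0.10 (152 kb) with a call lost without 5 of the 8 libraries (adjusted p up to 0.139). TDP2, which acts on topoisomerase 2 lesions, stood at 38.1 to 87.6 CPM in DMSO and at 47.5 to 55.7 CPM with topotecan (adjusted p = 0.59, edgeR). Of 29 tested homologous recombination and Fanconi anaemia genes, FANCC (328 kb) fell by 0.63 ± 0.10, the exonuclease gene EXO1 rose by 0.41 ± 0.10 and 27 did not pass, among them BRCA1 (-0.29 ± 0.12) and BRCA2 (0.22 ± 0.17). Among 29 end joining and checkpoint genes, 25 did not pass, and the DNA-PK genes PRKDC (-0.48 ± 0.11) and XRCC5 (-0.43 ± 0.10) and the ligase partner gene XRCC4 (-0.63 ± 0.18) fell. The calls of EXO1, PRKDC, XRCC5 and XRCC4 were each lost without 4 or more of the 8 libraries (adjusted p up to 0.153). The checkpoint kinase genes ATM (-0.23 ± 0.14) and ATR (0.03 ± 0.13) did not pass. On the homologous recombination list 3.45% were higher and 3.45% lower, near the 1.79% and 5.97% over all genes tested. The end joining list had 3.45% higher and 10.3% lower. Without DMSO replicate 4 the counts were 3 higher and 7 lower on each of the topoisomerase and homologous recombination lists, and 5 higher and 9 lower on the end joining list.

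Genes of other stress programmes moved less. On the ATF4 and integrated stress response list, 33 genes were tested and 4 rose, with none lower (median log2 0.22): PPP1R15A, the amino acid transporter gene SLC3A2 (0.56 ± 0.11), DDIT3, which encodes CHOP (0.47 ± 0.13), and CEBPB (0.54 ± 0.15). The calls of DDIT3 and CEBPB were lost without 6 or more of the 8 libraries (adjusted p up to 0.161). ATF4 itself changed by 0.13 ± 0.09 and TRIB3 by 0.22 ± 0.12, neither past the threshold. Without DMSO replicate 4, 14 members of this list rose and 3 fell. With a replicate block in the fit 12 rose and none fell. Of 25 unfolded protein response genes, ATF6, which spans 198 kb, fell by 0.74 ± 0.11 and 24 did not pass, among them the chaperone gene HSPA5 (-0.26 ± 0.09, adjusted p = 0.0964, edgeR). This list counted 5 higher and 9 lower without DMSO replicate 4. Of 29 tested interferon-stimulated and antigen presentation genes, 5 rose and none fell: IRF1, OAS3 (0.46 ± 0.09), IRF7 (0.79 ± 0.17), IFIT3 (0.80 ± 0.20) and the peptide transporter gene TAP1 (0.50 ± 0.14). IRF7 lost its call without DMSO replicate 2 or 3, and IFIT3 and TAP1 without 5 or more of the 8 libraries (adjusted p up to 0.146). ISG15 (0.42 ± 0.24) did not pass. The interferon list counted 11 higher and 1 lower without DMSO replicate 4. No gene passed in edgeR among 22 heat shock genes, 32 cytosolic ribosomal protein genes, 13 mitochondrially encoded mRNAs or 30 nuclear-encoded oxidative phosphorylation genes. RPLP0 of the ribosome changed by 0.06 ± 0.08 and MT-ND1 of the mitochondrial genome by -0.08 ± 0.13. Leaving out DMSO replicate 4, heat shock genes counted 1 higher and 6 lower, mitochondrial mRNAs 2 lower, and oxidative phosphorylation genes 4 higher and 1 lower. In that setting 8 of the 32 ribosomal protein genes rose, and the median of that list was 0.09. Single members or a few passed among ribosome biogenesis (1 of 30 higher), sterol synthesis (1 of 28 lower), NRF2 (1 higher and 2 lower of 24), hypoxia (1 of 29 lower) and apoptosis genes (1 higher and 2 lower of 26). In the same order, these 5 lists counted 6, 6, 3, 3 and 5 higher and 3, 5, 5, 5 and 3 lower without DMSO replicate 4.

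Genes that control transcript elongation and nuclear RNAs held some of the clearer changes outside the main groups. HEXIM1, which holds the elongation kinase P-TEFb inactive, rose from 145, 170, 151 and 162 CPM to 253, 236, 243 and 236 CPM (0.63 ± 0.09, adjusted p = 0.000553, edgeR). MEPCE, which caps the RNA of the same inhibitory complex, rose by 0.72 ± 0.16, with a call lost without DMSO replicate 2 (adjusted p = 0.0594, edgeR), and POLR2A, the large subunit of RNA polymerase II, by 0.40 ± 0.11, with a call lost without 6 of the 8 libraries (adjusted p up to 0.160). MLLT3 (281 kb) fell by 0.90 ± 0.14 and CDK13 (150 kb) by 0.47 ± 0.11, the latter with a call lost without 5 of the 8 libraries (adjusted p up to 0.0714). The P-TEFb genes CDK9 (0.31 ± 0.13) and CCNT1 (0.22 ± 0.10) did not pass, though CDK9 passed without DMSO replicate 4. In all, 3 of 33 elongation genes rose, 2 fell and 28 did not pass, against 8 higher and 7 lower without DMSO replicate 4. Among 20 SR protein and CLK kinase genes, SRSF7 rose (0.38 ± 0.08) and SRPK2, which spans 289 kb, fell (-0.63 ± 0.11). The SR list counted 4 higher and 3 lower without DMSO replicate 4, and 3 higher without DMSO replicate 1. Of 23 tested small nucleolar RNA host genes and nuclear RNAs, 6 rose, 1 fell and 16 did not pass (median log2 0.27), against 10 and 3 without DMSO replicate 4. SNHG1 rose by 0.58 ± 0.09 and GAS5, whose RNA is destroyed when translated, by 0.40 ± 0.08. NEAT1, the scaffold of paraspeckles, fell from 597 to 726 CPM down to 440 to 485 CPM (-0.48 ± 0.08). MALAT1 changed by -0.16 ± 0.12 (adjusted p = 0.463, edgeR) and did not pass. Of 26 YAP-TEAD and TGF-beta targets, 6 fell, none rose and 20 did not pass (median log2 -0.13), against 8 lower and 2 higher without DMSO replicate 4. TEAD1 (270 kb) fell by 0.80 ± 0.12 and CCN2, a matrix protein gene of only 3.2 kb, by 0.58 ± 0.10. CCN1 (-0.36 ± 0.09) and YAP1 (-0.39 ± 0.11) fell with calls lost without 5 or more of the 8 libraries (adjusted p up to 0.165).

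**Figure D2:**
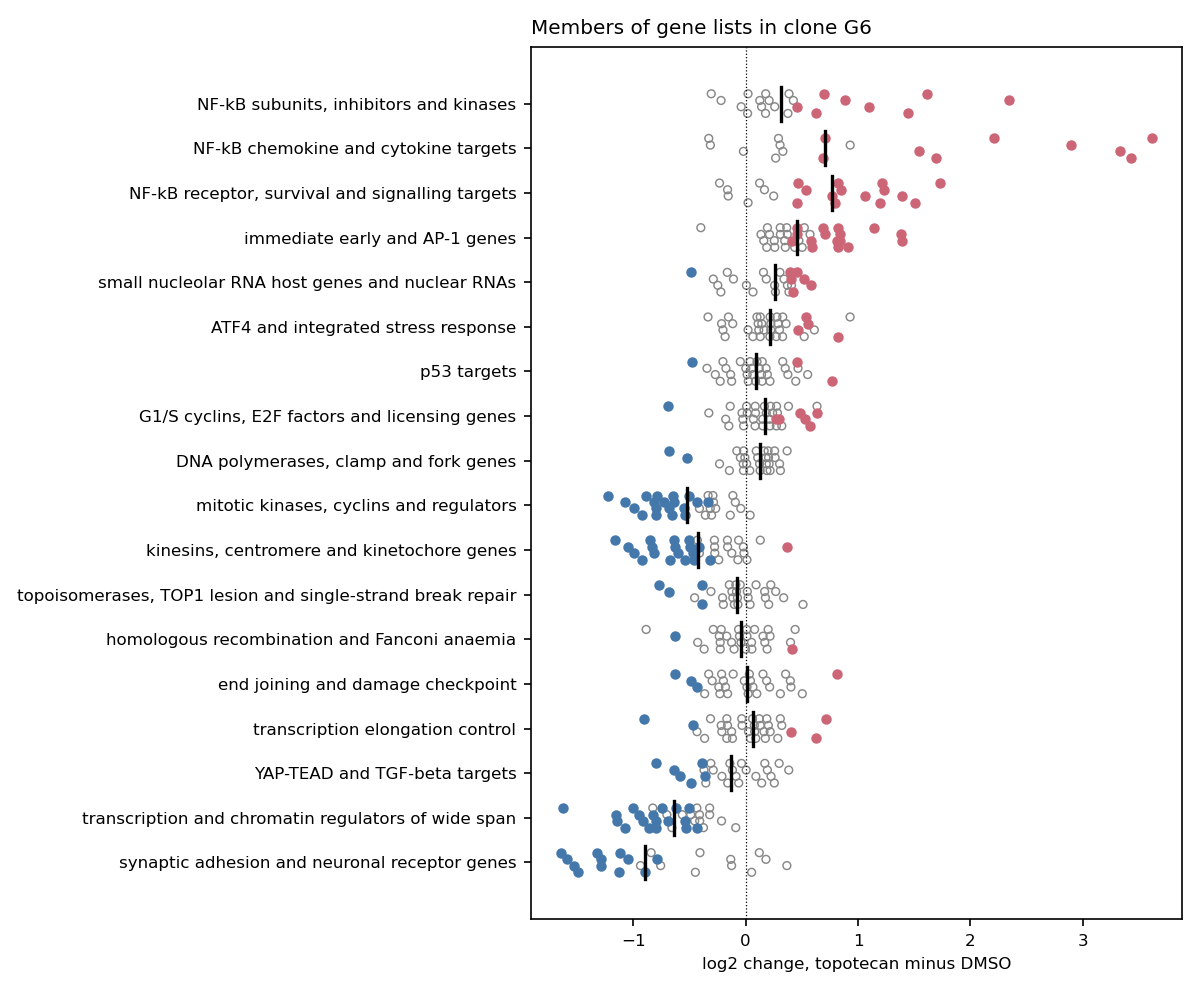
Log2 change, topotecan minus DMSO (horizontal axis), of the tested members of 18 gene lists in clone G6 (rows); filled points passed the threshold, open points did not, and the black bar is the median of the list. The 3 NF-kB lists have medians of 0.32 to 0.77 with no member lower past the threshold, and the mitotic, kinesin and wide-span lists have medians of -0.42 to -0.89.

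The decreases followed the span of the gene, the distance from its start to its end in the annotation. Among 13513 protein-coding genes the rank correlation between log2 change and span was -0.54. Within the replicate numbers it was -0.38, -0.47, -0.50 and -0.37 (mean -0.43 ± 0.07, SD, n = 4). Genes are not independent replicates and share their libraries, so these are descriptions. Holding mean expression, GC content and the length and number of exons fixed gave a partial rank correlation of -0.32. Of 2530 genes under 10 kb, 4.86% were higher, 14 were lower and 2002 had a positive change, with a median log2 change of 0.17. Of 3747 genes of 10 to 30 kb, 109 were higher and 35 lower (median 0.11). Genes of 30 to 100 kb were near balance in median (-0.04) with 30 higher and 132 lower of 4453. From there the decreases dominated, with 4 higher and 282 lower of 1692 genes of 100 to 200 kb (median -0.22). Of 903 genes of 200 to 500 kb, none was higher and 365 were lower (40.4%, median -0.45). Of 188 genes over 500 kb, none was higher and 98 were lower (52.1%), and 174 had a negative change. Their median of -0.81 corresponds to 0.569 of the DMSO level, and 56 of them fell at least 2-fold. The median span was 199.8 kb for genes that were lower, 11.4 kb for those that were higher and 33.7 kb for all protein-coding genes tested.

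**Figure D3:**
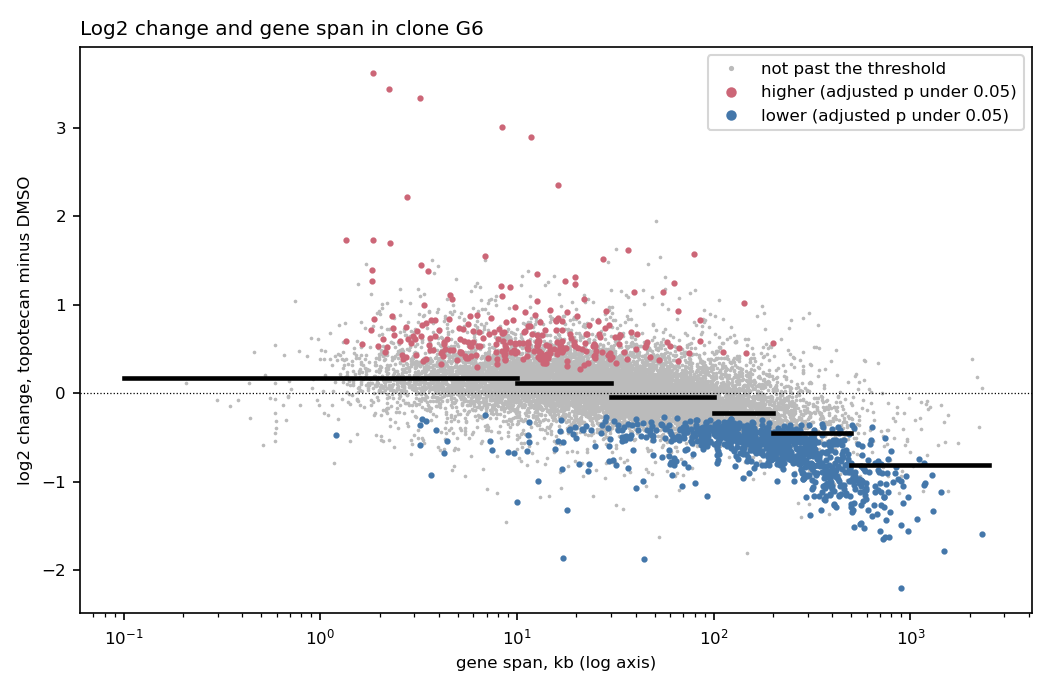
Log2 change, topotecan minus DMSO (vertical axis), against gene span in kb (horizontal log axis) for protein-coding genes tested in clone G6; red and blue points passed the threshold and grey points did not, and black lines are the medians of 6 span classes. The medians step down from 0.17 under 10 kb to -0.81 over 500 kb, and no gene over 200 kb was higher past the threshold.

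Among genes over 200 kb the smallest p belonged to PARD3, PSD3, TTC28, PTK2 and TRIO. PARD3 (chromosome 10, 34109560 to 34815325), a polarity protein gene of 706 kb, stood at 177, 152, 167 and 153 CPM in DMSO and at 60.4, 71.4, 65.3 and 72.6 CPM with topotecan. The topotecan values were all under the lowest DMSO value by a wide margin (log2 -1.26 ± 0.10, adjusted p = 1.04e-05, edgeR). PTK2 (344 kb), which encodes focal adhesion kinase, was at 130, 131, 135 and 117 CPM and at 60.4, 55.3, 57.5 and 55.8 CPM (-1.16 ± 0.09). TRIO (388 kb), an exchange factor for small GTPases, was at 185, 208, 200 and 203 CPM and at 80.6, 98.4, 91.6 and 86.5 CPM (-1.16 ± 0.09). PSD3 fell by 1.47 ± 0.12 and TTC28 by 1.55 ± 0.13, and in these 5 genes the groups did not overlap. The 15 lowest changes among genes at a mean log2 CPM of at least 2 all belonged to genes of 309 kb or more. They were led by NCKAP5 (897 kb), at 9.58, 11.2, 5.93 and 5.79 CPM in DMSO and at 1.67 to 1.90 CPM with topotecan (-2.20 ± 0.28, adjusted p = 0.000288, edgeR). The synaptic scaffold gene GRIP1 (-1.65 ± 0.19), the transcription factor gene SOX6 (-1.63 ± 0.25), the cyclin-dependent kinase gene CDK14 (-1.63 ± 0.18) and the phosphatase gene PTPRD, the widest at 2298 kb (-1.59 ± 0.19), came next. The rest were TTC28, the potassium channel gene KCNQ5 (-1.53), the adhesion gene NLGN1 (-1.49), TMEM117 (-1.48), PSD3, PARD3B (-1.42), AGAP1 (-1.39), KLF12 (-1.38), the scaffold gene GPHN (-1.37) and SHANK2 (-1.34). All of these had non-overlapping groups.

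A pair of lists was drawn up from genes known to be wide, so their direction is not independent of the relation with span. Of 32 transcription and chromatin regulators of wide span (median 384 kb), all had a negative change, 18 fell, none rose and 14 did not pass (median log2 -0.64). ARID1B, a subunit of the BAF remodelling complex, went from 58.7 to 77.1 CPM down to 27.6 to 33.5 CPM (-1.16 ± 0.12). The histone methyltransferase gene KMT2C (-0.82 ± 0.10), the Polycomb cofactor gene JARID2 (-0.80 ± 0.10), the exocyst gene EXOC4 and TCF4 (-0.75 ± 0.16) fell as well, and TCF4 lost its call without topotecan replicate 4 (adjusted p = 0.0543, edgeR). FOXP1 fell by 0.53 ± 0.14 with a call lost without 6 of the 8 libraries (adjusted p up to 0.129). Of 40 synaptic adhesion and neuronal receptor genes only 23 passed the filter, and of these 12 fell, none rose and 11 did not pass (median log2 -0.89, median span 736 kb). The receptor phosphatase gene PTPRK fell from 45.8 to 54.4 CPM down to 20.2 to 23.6 CPM (-1.12 ± 0.12), and the adhesion gene TENM3 from 80.3 to 104.4 CPM down to 40.6 to 52.3 CPM (-1.05 ± 0.12).

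Genes of narrower span also fell, with 14 lower under 10 kb, 35 at 10 to 30 kb and 132 at 30 to 100 kb. Of the 106 genes that fell at least 2-fold, 8 were protein-coding genes under 100 kb, and 4 of these 8 belonged to the mitotic and kinesin lists: KIF14, BUB1, CENPE and the helicase gene PIF1 (-1.23 ± 0.23, 10.0 kb). Under 10 kb the 5 smallest p among genes that fell belonged to ADAMTS1, PSRC1, KIF20A, CDC20 and CCN2. ADAMTS1, a secreted protease gene of 9.66 kb, stood at 351, 357, 353 and 366 CPM in DMSO and at 218, 229, 226 and 223 CPM with topotecan (-0.67 ± 0.07, adjusted p = 0.000111, edgeR). Replicates of ADAMTS1 differed by far less than the groups.

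DMSO replicate 4 lay nearer to topotecan than the other DMSO libraries on both ends of the span range. Set against the mean of the untreated libraries of clone G6, the median log2 level of genes of 200 kb or more was -0.13 in DMSO replicate 4 and 0.04 in each of the other 3 DMSO libraries, against -0.45 to -0.54 in the topotecan libraries. For genes under 10 kb the values were 0.23 in DMSO replicate 4, -0.13 to -0.05 in the other DMSO libraries and 0.10 to 0.28 with topotecan. Replicate 4 was also the lowest for wide genes and the highest for short genes in the untreated, OL9-119, topotecan and combination groups. The replicate 4 libraries of the 5 groups held 17.1 to 18.8 M counts, and the part of depth or of the library batch in the pattern was not tested.

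The vehicle itself was compared with no treatment in the same way. Of 15581 genes, 0 passed the threshold in edgeR (0%), with 255 at an unadjusted p under 0.05, and 0 passed in DESeq2, with 299. No member of any of the 31 lists passed. The rank correlation with span was 0.03, and -0.10 to 0.18 within replicate numbers. DMSO libraries enter both this comparison and the one with topotecan.

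Topotecan was also given to clone G6 on top of OL9-119, and this comparison takes 8 libraries that the comparison above does not use. As no DMSO share is recorded for the combination, a difference in vehicle cannot be told apart from topotecan here. The combination differed from OL9-119 alone in 415 of 16184 genes (2.56%), 55 higher (0.34%) and 360 lower (2.22%). Of the 1223 genes called for topotecan minus DMSO that were tested in both comparisons, 1209 had the same sign (98.9%), against 68.4% of all 15591 genes tested in both. The 380 genes called in both made up 31% of the calls for topotecan minus DMSO and 91.6% of those for the combination. TNFAIP3 rose by 2.07 ± 0.11, IER3 by 1.77 ± 0.09 and NFKBIA by 1.51 ± 0.09. PARD3 fell by 1.19 ± 0.09, and TRIO (-1.10) and ERC1 (-1.25) fell as well. Of the chemokine list 9 of 19 tested genes rose, and of the receptor list 9 of 21. Among mitotic genes 8 of 32 fell, and of wide-span regulators 14 of 32. The rank correlation with span was -0.44. ATF3 changed by 0.32 (adjusted p = 0.11, edgeR) and JUN rose by 0.52 in the combination, beside 1.14 and 1.38 for topotecan alone. The difference between the comparisons was not tested. The count of 415 moved to 954 without the libraries under 20000 detected genes, to 180 and 188 without OL9-119 replicates 2 and 3, and to 177, 162 and 185 without combination replicates 2, 3 and 4.

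**Figure D4:**
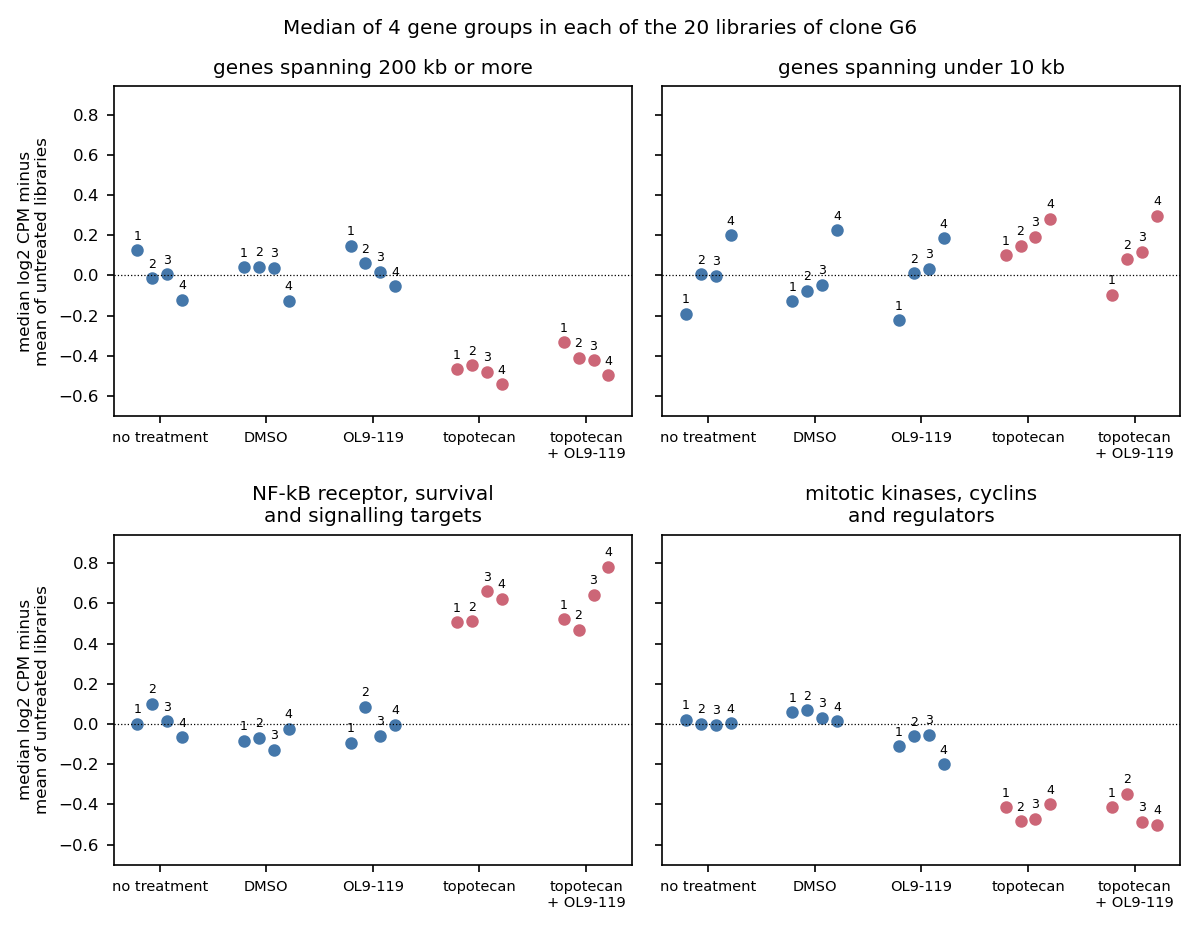
Median log2 CPM of 4 gene groups, minus the mean of the untreated libraries (vertical axis), in each of the 20 libraries of clone G6 by treatment (horizontal axis); digits are replicate numbers, and red marks libraries given topotecan. For wide genes the libraries given topotecan alone sit at -0.45 to -0.54, the combination at -0.33 to -0.50 and the DMSO libraries at -0.13 to 0.04, while for genes under 10 kb DMSO replicate 4 lies within the range of topotecan alone.

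The response of clone G6 was set against that of clones C6 and F7 in a fit of the 24 DMSO and topotecan libraries of the 3 clones. Of 17769 genes, 4 differed from the mean of the other clones (0.0225%), all with the stronger rise in G6, with 728 at an unadjusted p under 0.05. They were IER3 (difference 0.84 ± 0.13), JUN (0.72 ± 0.12) and TNFAIP3 (0.82 ± 0.13), each with an adjusted p of 0.00665 in edgeR, and CXCL8 (1.16 ± 0.22, adjusted p = 0.0402, edgeR). CXCL8 changed by 3.44 in C6, 0.92 in F7 and 3.34 in G6 on the log2 scale. TNFAIP3 changed by 2.58, 0.48 and 2.35, IER3 by 1.39, 0.40 and 1.74, and JUN by 0.90, 0.43 and 1.39. For CXCL8 and TNFAIP3 the low value was thus that of F7, and C6 lay at or above G6. Set against each clone apart, added after the data were seen, G6 differed from C6 in 0 genes in edgeR (814 at an unadjusted p under 0.05) and from F7 in 15, all stronger in G6 (669 unadjusted). Besides those 4 genes, they were IRAK2, SDC4, CCL20, CXCL1, ATF3, NFKBIA, IRF1, NFKB2, PLAU, RELB and PPP1R15A. IRAK2 changed by 1.57 in G6, 0.48 in C6 and -0.05 in F7. The count of 4 fell to 0 without topotecan replicate 3 of G6 and to 2 without its replicate 1. No gene of wide span passed the test of a difference between clones, and the rank correlation with span was -0.38 in C6, -0.42 in F7 and -0.50 in G6 over 14328 genes, a difference that was not tested.

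**Figure D5:**
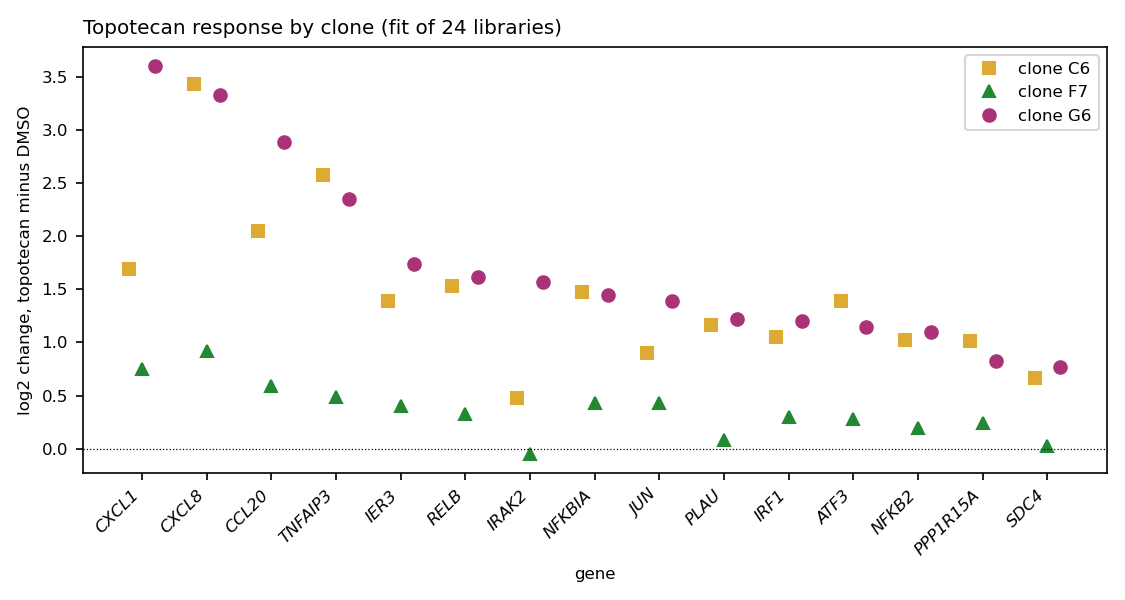
Log2 change, topotecan minus DMSO (vertical axis), in clones C6, F7 and G6 (squares, triangles and circles) for the 15 genes whose response differed between G6 and F7 (horizontal axis). F7 is the lowest of the 3 clones in each gene, at 0.92 for CXCL8 against 3.44 in C6 and 3.34 in G6.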

How the data were processed

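RNA of 60 libraries of HEK293A TDP1-knockout clones was poly(A)-selected and sequenced, and 8 libraries of clone G6 form the main comparison. Per the submitters' processing notes the tools were FastQC 0.11.9, STAR 2.7.8 and Picard 2.26.6 with hg38. The authors deposited raw counts per gene, without normalization. No source used here names the counting tool, its annotation or its strand setting. Columns were matched to samples by library name. Genes were named and placed with GENCODE 29.

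Counts were filtered (filterByExpr), scaled by TMM and tested with the quasi-likelihood F-test of edgeR 4.0.16 in R 4.3.3 (limma 3.58.1), 2 groups per fit, at a Benjamini-Hochberg adjusted p of 0.05. The clone difference used 24 libraries. DESeq2 1.42.0 was an alternative. The procedure was tested on simulated data. Libraries of 6.86 to 20.9 M counts limit low genes most. Named genes were TDP1, TOP1, the 15 highest and 15 lowest log2 changes, leading members of 31 lists, and the smallest p by span class and comparison. The members and lists were chosen with earlier results of these data known. Replicate numbers were not treated as pairs.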

Additional observations from a re-analysis of the deposited data

Results flagged for a closer look

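In 16 of 321 groups of 4 libraries among the named genes, a library lay far from the others of its group by Dixon's criterion, which chance meets in about 1 in 20 groups. In DMSO replicate 4 these were the high values of IRAK2 (3.97 CPM against 2.57 to 2.74), JUNB (69.7 CPM), NFKB2 (80.9 CPM), BCL3 (10.7 CPM against 4.53 to 5.41) and IL32 (43.5 CPM), and the low value of AURKA (145 CPM). In DMSO replicate 1 they were CXCL2 at 5.81 CPM and AGAP1 at 49.5 CPM against 66.9 to 70.1. Among topotecan libraries, replicate 2 stood apart for CXCL2 (7.22 CPM), KIF20A (71.2 CPM) and MLLT3 (12.5 CPM), and replicate 3 for IRAK2 (11.4 CPM), PLAU (35.01 CPM) and IFIT3 (12.5 CPM). Replicate 4 stood apart for IRF1 (51.1 CPM) and KMT2C (51.3 CPM).

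The response to topotecan differed between clone G6 and the mean of clones C6 and F7 by a test of the difference in CXCL8 (1.16 on the log2 scale), IER3 (0.84), TNFAIP3 (0.82) and JUN (0.72), as given above.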

How the results depend on the processing

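No named gene past the threshold changed direction under the alternatives run. The sign did change for 4 named genes that did not pass (TDP2, ATR, CCNE1 and MT-ND1) and for the medians of 5 lists near 0, homologous recombination and end joining among them. Counts of genes past the threshold depended on the libraries. Topotecan against DMSO gave 222 to 4308 genes with libraries or replicate numbers left out, 36 to 1870 higher and 186 to 2438 lower, the largest counts without DMSO replicate 4. The number higher was 563 with DESeq2, 435 with no scaling factors, 551 with no filter on low counts and 519 with all 15 groups in the fit. The labels name no shared source for libraries of the same number, although their name prefixes matched between the groups. Their correlations were 0.19, 0.04, 0.07 and 0.40. All were positive. As they were not all over 0.1, a limit set by choice, the numbers were not used as pairs in the main fit. Genes given above as not past the threshold did not pass in a fit without pairs. The median of wide genes minus that of short genes was highest in replicate 1 and lowest in replicate 4 in all 5 groups of clone G6. It went from 0.17 to -0.35 in DMSO and from -0.57 to -0.82 with topotecan. The source of this order was not tested. Topotecan replicates 1, 2 and 4 correlated best with their own number and replicate 3 did not. A replicate block gave 2990 genes, 1171 higher and 1819 lower, with 8 p53 targets and 12 ATF4 list members higher, and 1969 for the combination. The combination gave 865 genes with DESeq2, 954 without libraries under 20000 genes and 162 to 496 with a library left out. The clone difference gave 12 genes with DESeq2, 7 with all 15 groups and 0 to 5 with a library left out. The correlation with span was -0.38 with no filter, -0.63 for genes at a mean log2 CPM of at least 4 and -0.32 as a partial correlation. The median of the NF-kB subunit list was 0.39 with no scaling factors, 0.25 without libraries under 20000 genes and 0.24 to 0.35 with libraries left out. That of the receptor list was 0.68 with no filter and 0.64 to 0.81, and that of the chemokine list 0.62 to 1.34, the highest without DMSO replicate 1. The immediate early list ranged from 0.42 to 0.57 and the synaptic list from -1.11 to -0.79. The causes were not tested. Of 156 named genes tested, 133 passed, and 93 of these passed with each of the 8 libraries left out in turn. Genes of a few counts are the least precise.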

Other observations

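Genes whose symbol begins with ZNF, most of which encode zinc finger transcription factors, were looked at after their values were seen, and no test was made. Of 462 tested, 26 were higher (5.63%) and 6 lower, with a median log2 change of 0.18, and 353 had a positive change. For comparison, 2.91% of protein-coding genes of 10 to 30 kb were higher. On chromosome 19, 16 of 225 ZNF genes were higher (7.11%). Without DMSO replicate 1, 42 of the 462 and 27 of the 225 were higher. In that fit 119 of 3747 protein-coding genes of 10 to 30 kb were higher (3.18%), and 2.06% of all genes tested.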
